A study of Mus musculus with 12 samples.

Results

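The enzymes that build cholesterol and fatty acids, and the proteins that sense sterols and switch these enzymes on, were described in dendritic cells (DCs) marked by CD11b, an integrin of myeloid cells; DCs take up antigen and show it to T cells. The genes were 30 symbols chosen by name: 18 sterol synthesis enzymes, 6 genes of sterol sensing and transport (Srebf1, Srebf2, Scap, Insig1, Insig2 and Stard4) and 6 fatty acid synthesis enzymes (Acly, Acaca, Fasn, Elovl6, Scd1 and Scd2). All 30 were among the 24391 gene symbols of the count table, and 29 passed the filter on low counts that left 13221 genes for testing. The missing gene was Hmgcs1, which was listed at 0 counts in all 12 libraries. All mice were wild-type C57BL/6J, 8 to 12 weeks old, and an adenovirus unable to replicate had been instilled into their trachea. The vector was either empty (AdCL) or carried the porcine TGF-β1 gene in its biologically active form (AdTGFb1). The series title places the cells in established pulmonary fibrosis. Each vector was used in experiment 1 and in experiment 3, with 3 libraries per vector and experiment, which are named here by the DC number in their titles. AdCL DC 7, 8 and 9 and AdTGFb1 DC 14, 52 and 54 belong to experiment 1. AdCL DC 943, 944 and 949 and AdTGFb1 DC 954, 955 and 956 belong to experiment 3. Nothing in the labels states that the libraries of a group are from separate animals, so p-values measure the spread between these libraries.

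Cells make cholesterol from acetyl-CoA. The mevalonate steps yield isoprene units, these are joined to squalene, and squalene is folded into lanosterol and trimmed to cholesterol. When sterols in the endoplasmic reticulum run low, the escort protein SCAP carries the precursors of the transcription factors SREBP1 and SREBP2 to the Golgi, where proteases release them. INSIG proteins hold SCAP back when sterols are plentiful. SREBP2 acts mainly on sterol genes and SREBP1 mainly on fatty acid genes. In macrophages and DCs the same lipids supply membranes for phagocytosis and cell division, and oxidised sterols switch on the nuclear receptor LXR, which raises sterol export.

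Library totals ran from 10099912 to 15594546 counts, and Pearson correlations of log2 CPM (counts scaled to library size) between libraries of 1 group ran from 0.896 to 0.942. All 10 markers of CD11b DCs had counts in every group. With the experiments combined, where 10.4% of all genes fell and 6.78% rose with AdTGFb1, 6 of these markers fell and 1 rose. Their summed level was 27672 to 30714 CPM in AdCL and 18353 to 22510 CPM in AdTGFb1 of experiment 1, and 26200 to 35309 and 23473 to 29292 CPM in experiment 3. Itgam, which encodes CD11b, lay between 276 and 562 CPM over the 12 libraries. The AdCL libraries of experiment 1 stood apart. They were male by Xist and Ddx3y, as was AdTGFb1 DC 14, while the other 8 libraries were female. They also held more endothelial transcripts: the summed level of 10 endothelial markers was 194 to 647 CPM in them, 38.2 to 72.9 CPM in AdTGFb1 of experiment 1, 51.4 to 114.7 CPM in AdCL of experiment 3 and 101 to 189 CPM in AdTGFb1 of experiment 3. All 10 endothelial markers had counts in each of the 4 groups. In bulk RNA, fewer cells of a type and less RNA per cell cannot be told apart.

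A gene was called higher or lower, or said to rise or fall, where edgeR's adjusted p over all genes was under 0.05. In experiment 1, 8 of 17 tested sterol enzymes rose with AdTGFb1 and 0 fell, with a median log2 fold change of 0.87 against -0.026 over all genes tested. A share of 47.1% of the tested sterol enzymes was thus called higher, where the share over all genes was 10.6% higher and 14.1% lower. In experiment 3, edgeR called 0 of 17 (1 at an unadjusted p under 0.05, and 0 by DESeq2), where 6.43% of all genes were called, 1.97% higher. The median there was -0.34, against 0.0028 over all genes. Of the fatty acid enzymes, 2 of 6 rose in experiment 1, with a median of 0.15, and 0 of 6 were called in experiment 3 (1 at an unadjusted p under 0.05), with a median of -0.26. Of the 6 genes of sensing and transport, Scap rose and Srebf2 fell in experiment 1, and only Srebf2 was called in experiment 3, also lower, where 4.46% of all genes were called lower. With the experiments combined, edgeR called 1 gene higher (Hsd17b7) and 1 lower (Srebf2) of the 29, where 6.78% of all genes were called higher and 10.4% lower. The combined medians were 0.25 for sterol enzymes, -0.020 for fatty acid enzymes and -0.0020 for all genes.

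**Figure D1:**
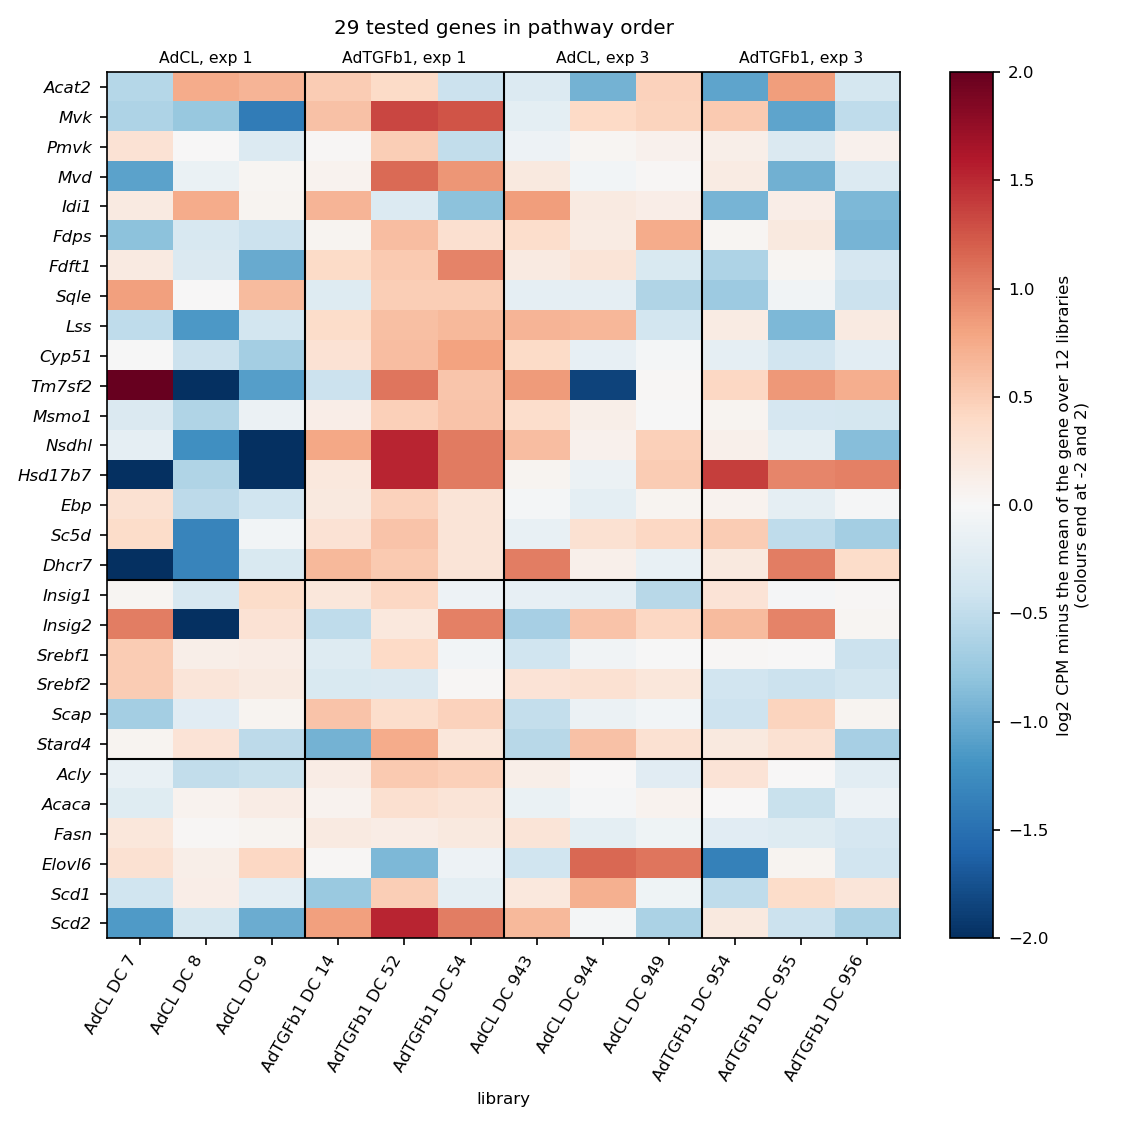
Log2 CPM of the 29 tested genes, each minus its mean over the 12 libraries, with genes in pathway order down the side (17 sterol enzymes, 6 genes of sensing and transport, 6 fatty acid enzymes) and libraries along the bottom in their 4 groups; red is above and blue below the mean, with colours ending at -2 and 2. Most of the sterol rows are blue in AdCL DC 7, 8 and 9 and red in AdTGFb1 DC 14, 52 and 54, and Srebf2 is below its mean in 5 of the 6 AdTGFb1 libraries.

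The count of 11 genes higher in experiment 1 (8 sterol enzymes, Scap, Acly and Scd2) fell to 7 without AdCL DC 8, 6 without AdTGFb1 DC 52 and 7 without AdTGFb1 DC 54, and ran from 8 to 11 without any other library. It was 1 with a term for sex and 0 with a term for endothelial transcripts, both of which separate the vectors in experiment 1 nearly or wholly, so that the vector and these measures cannot be told apart there. The summed levels of other marker lists also moved with the sterol arm. The summed level of 4 cell cycle markers was 754 to 939 CPM in AdCL and 983 to 1157 CPM in AdTGFb1 of experiment 1, and 824 to 954 CPM in AdCL and 477 to 531 CPM in AdTGFb1 of experiment 3. That of 8 alveolar macrophage markers, of which Chil3 made up most, was 43.1 to 144 CPM and 1017 to 2143 CPM in experiment 1, and 162 to 530 CPM and 60.2 to 89.7 CPM in experiment 3. Each of these markers had counts in every group. In experiment 1, 2 of 4 cell cycle and 2 of 8 alveolar macrophage markers were called higher, and 0 lower. Over all genes 10.6% were higher and 14.1% lower there. In experiment 3, 2 cell cycle markers and 1 alveolar macrophage marker were called lower, and 0 higher. Over all genes 4.46% were lower and 1.97% higher there. With a term for alveolar macrophage transcripts the count of genes higher in experiment 1 was 3, and with a term for cell cycle transcripts it was 0. The cell cycle measure, a mean of centred log2 CPM, was -0.88 to -0.39 in AdCL and 0.82 to 1.22 in AdTGFb1 there. It separates the vectors wholly, so vector and cell cycle term cannot be told apart in experiment 1. With that term the log2 fold changes of the 11 genes ran from -0.24 (Mvd) to 3.44 (Hsd17b7). Without it they ran from 0.72 (Scap) to 2.84 (Hsd17b7). Whether the cell cycle or the alveolar macrophage list caused the differences was not tested.

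**Figure D2:**
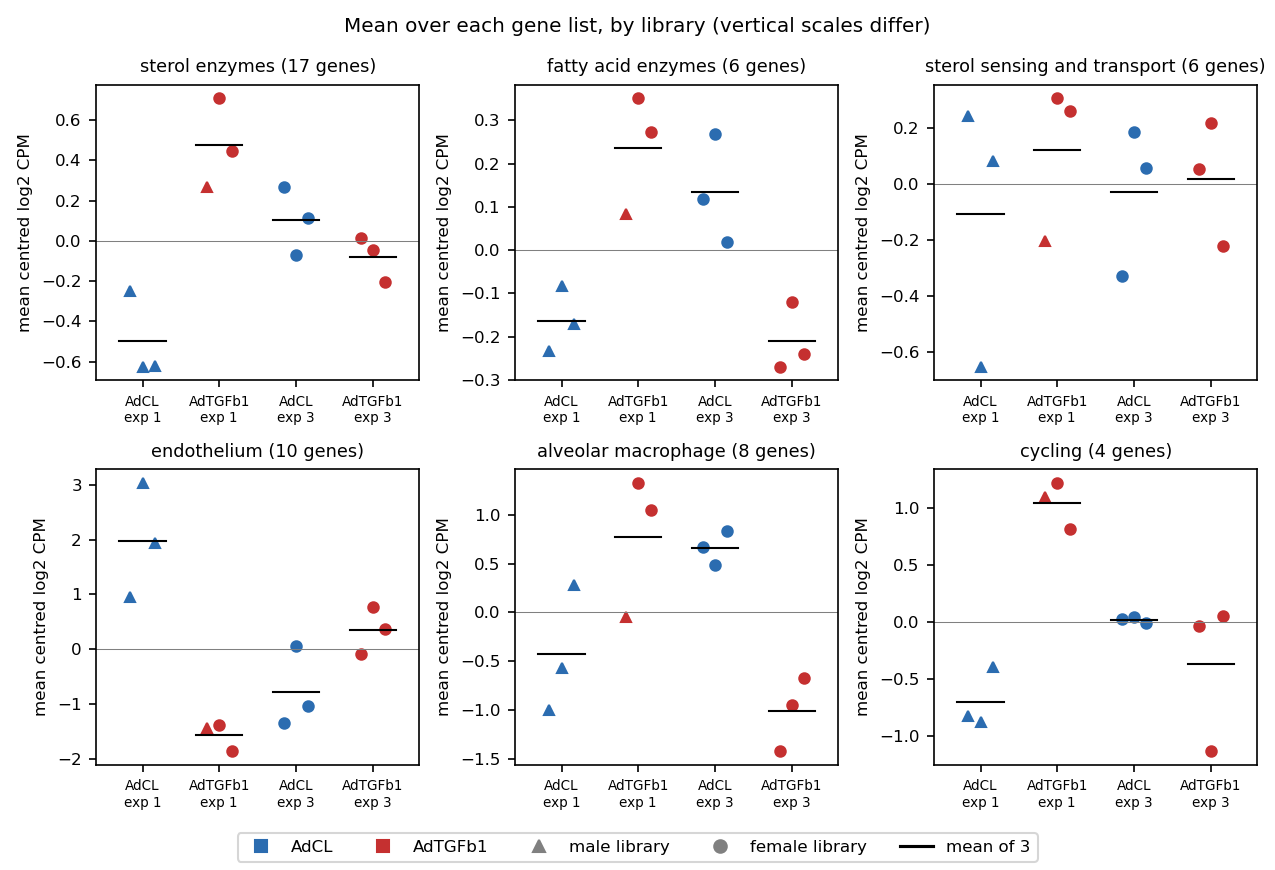
Mean over the genes of each list of log2 CPM minus the gene's own mean over 12 libraries, for 3 lists of the pathway (top) and 3 marker lists (bottom), by vector and experiment; each symbol is 1 library, triangles are male and circles female, and dashes are means of 3. The sterol enzymes lay at -0.50 ± 0.22 (SD, n = 3) in AdCL and 0.47 ± 0.22 in AdTGFb1 of experiment 1, and at 0.10 ± 0.17 and -0.079 ± 0.11 in experiment 3, while the endothelial list lay at 1.98 ± 1.04 in AdCL of experiment 1.

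The mevalonate steps come first. Acat2, the thiolase that joins acetyl-CoA units, did not pass in either experiment (between 2.16 and 8.46 CPM over all libraries), and its reads may be shared with its near-identical neighbour Acat3. Hmgcs1, the synthase of the next step, was listed at 0 in every library, where 3 counts correspond to 0.181 to 0.31 CPM, and no level can be given for it. Mvk, which phosphorylates mevalonate, lay at 3.62, 3.28 and 2.05 CPM in AdCL DC 7, 8 and 9 and at 8.56, 14.5 and 13.8 CPM in AdTGFb1 DC 14, 52 and 54. Its levels in experiment 3 were 4.90, 7.49 and 7.77 CPM in AdCL and 8.24, 2.64 and 3.93 CPM in AdTGFb1. The vectors did not overlap in experiment 1 and did in experiment 3. The log2 fold change was 2.04 ± 0.58 (SE, adjusted p = 0.0122) in experiment 1, lost without AdTGFb1 DC 52, and -0.45 ± 0.55 (adjusted p = 0.752) in experiment 3. Pmvk, which adds the second phosphate, did not pass in any comparison and had group means from 30.7 ± 4.57 to 32.4 ± 11.0 CPM (SD, n = 3).

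Mvd, which removes a carboxyl group to give the isoprene unit, lay at 6.82, 13.1 and 14.9 CPM in AdCL and 15.2, 31.9 and 26.7 CPM in AdTGFb1 of experiment 1. Its lowest AdTGFb1 library was thus just above the highest AdCL library, and it rose by 1.08 ± 0.39 (adjusted p = 0.0471). That call was lost without any of 6 libraries (AdCL DC 7, 8 or 943, AdTGFb1 DC 52, 54 or 956). In experiment 3 Mvd lay at 13.9 to 16.6 CPM in AdCL and 7.35 to 16.2 CPM in AdTGFb1 (-0.35 ± 0.39, adjusted p = 0.717). Fdps, which joins isoprene units to farnesyl diphosphate, lay at 10.5 to 15.0 CPM in AdCL and 19.5 to 29 CPM in AdTGFb1 of experiment 1, without overlap, but did not pass (0.87 ± 0.33, adjusted p = 0.0606). In experiment 3 its difference had the other sign (-0.60 ± 0.33, adjusted p = 0.359). Idi1, the isomerase between them, did not follow: its difference was -0.37 ± 0.44 in experiment 1 and -0.91 ± 0.44 in experiment 3, neither past the threshold (adjusted p = 0.588 and 0.27). The 3 AdTGFb1 libraries of experiment 3, at 6.42 to 13.6 CPM, lay below its 3 AdCL libraries, at 13.7 to 22.3 CPM.

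From squalene onward several enzymes were likewise called in experiment 1 and not in experiment 3, with exceptions. Among the sterol enzymes, the direct test of the difference between the experiments passed only for Cyp51 and Nsdhl. Fdft1, which joins farnesyl units to squalene, lay at 25.4, 18.4 and 11.1 CPM in AdCL and 29.5, 32.4 and 44.7 CPM in AdTGFb1 of experiment 1. It rose there by 0.96 ± 0.32 (adjusted p = 0.0309, lost without AdCL DC 8, AdCL DC 9, AdTGFb1 DC 52 or AdTGFb1 DC 54), and in experiment 3 its difference was -0.35 ± 0.32 (adjusted p = 0.631). Fdft1 shares 774 exon bases, 18.3% of its length, with the opposite strand of the lysosomal protease gene Ctsb, which itself rose in experiment 1 (0.93, adjusted p = 1.48e-05). The strand setting of the counting is not given in the sources used here, so the Fdft1 counts are uncertain. Sqle, the epoxidase and a rate-limiting step, was not among the genes that rose: it lay at 23 to 40.5 CPM in AdCL and 19.0 to 32.3 CPM in AdTGFb1 of experiment 1 (-0.24 ± 0.30, adjusted p = 0.605). Sqle was the only one of the 29 genes called between the experiments over both vectors, lower in experiment 3 (-0.75 ± 0.22, adjusted p = 0.0438), where 2.86% of all genes were called lower and 3.57% higher, and that call was lost without any of 9 of the 12 libraries. Lss, which folds squalene epoxide into lanosterol, lay at 3.08 to 5.39 CPM in AdCL and 9.09 to 11.0 CPM in AdTGFb1 of experiment 1 and did not pass (1.21 ± 0.52, adjusted p = 0.0915).

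Cyp51, the cytochrome P450 that demethylates lanosterol, was the only sterol enzyme called in experiment 1 whose libraries did not overlap, in opposite directions, in the 2 experiments. It lay at 55.9, 41.7 and 34.8 CPM in AdCL and 68.1, 85.8 and 97.9 CPM in AdTGFb1 of experiment 1. The levels in experiment 3 were 73.0, 49.7 and 54.3 CPM in AdCL and 49.6, 42.9 and 48.4 CPM in AdTGFb1. AdTGFb1 was thus above every AdCL library in experiment 1 and below every one in experiment 3, where the nearest pair lay at 49.7 and 49.6 CPM. It rose by 0.93 ± 0.22 (adjusted p = 0.00287) in experiment 1, and its difference in experiment 3 was -0.33 ± 0.21 (adjusted p = 0.462). Msmo1, which oxidises the next methyl group, rose from 20.6 ± 3.48 to 34.2 ± 5.24 CPM in experiment 1 (SD, n = 3, 0.73 ± 0.26, adjusted p = 0.0451, lost without any of 6 libraries: AdCL DC 7 or 8 and AdTGFb1 DC 52, 54, 955 or 956). Its difference in experiment 3 was -0.36 ± 0.26 (adjusted p = 0.522).

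Nsdhl, an X-linked dehydrogenase of the same demethylation, lay at 6.72, 3.18 and 1.58 CPM in AdCL and 13.2, 22.3 and 15.9 CPM in AdTGFb1 of experiment 1, a rise of 2.16 ± 0.52 (adjusted p = 0.00395). AdTGFb1 DC 14, male like the AdCL libraries, was above all of them. Adding sex to the fit gave 1.785 for Nsdhl in experiment 1, which did not pass (adjusted p = 0.0976). Nor did Nsdhl pass there once endothelial transcripts (0.73, adjusted p = 0.855) or cell cycle transcripts (2.83, adjusted p = 0.304) were added instead. Both of these measures separate the vectors wholly in experiment 1, so vector and term cannot be told apart there. With 1 male AdTGFb1 library, vector and sex cannot be fully told apart for this gene. In experiment 3, where all libraries were female, Nsdhl lay at 11.7, 8.14 and 10.7 CPM in AdCL and 8.17, 6.63 and 4.17 CPM in AdTGFb1 (-0.69 ± 0.50, adjusted p = 0.523). Hsd17b7, the keto-reductase of that complex, was the only sterol enzyme called with the experiments combined. It lay at 0.724, 2.69 and 0.186 CPM in AdCL and 4.85, 12.2 and 8.73 CPM in AdTGFb1 of experiment 1, where AdCL DC 9 held only 2 counts. In experiment 3 it lay at 4.33, 3.83 and 6.03 CPM in AdCL and 11.2, 8.38 and 8.58 CPM in AdTGFb1. AdTGFb1 was above AdCL without overlap within each experiment. The log2 fold change was 1.87 ± 0.56 (adjusted p = 0.0262) combined, 2.84 ± 0.74 (adjusted p = 0.0066) in experiment 1 and 0.98 ± 0.68 (adjusted p = 0.489) in experiment 3. The combined call was lost without AdCL DC 7 (1.66), AdTGFb1 DC 52 (1.65) or AdTGFb1 DC 54 (1.80). It also ended once sex (1.33, adjusted p = 0.129), endothelial transcripts (1.56, adjusted p = 0.0712) or cell cycle transcripts (1.48, adjusted p = 0.101) entered the fit as a term, and with no term for experiment (1.59, adjusted p = 0.0748).

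The last enzymes were mixed. Dhcr7, which makes cholesterol from its final precursor, lay at 1.86, 4.08 and 8.37 CPM in AdCL and 16.4, 15.0 and 12.4 CPM in AdTGFb1 of experiment 1, a rise of 1.61 ± 0.49 (adjusted p = 0.0187, lost without AdCL DC 7). In experiment 3 the vectors overlapped, at 9.32 to 21.3 and 11.9 to 21.2 CPM (0.16 ± 0.47, adjusted p = 0.915). The isomerase Ebp and the desaturase Sc5d missed the threshold in experiment 1 (0.47 ± 0.26, adjusted p = 0.208, and 0.55 ± 0.40, adjusted p = 0.338) and in experiment 3. Tm7sf2, a sterol reductase, ranged from 0 to 8.68 CPM within AdCL of experiment 1 alone, and shares 532 exon bases with Vps51 on the same strand, so no direction can be read for it. Libraries of the vectors did not overlap for 10 of the 17 sterol enzymes in experiment 1, all with AdTGFb1 above, where 18.8% of all genes lay above in this way and 21.6% below. In experiment 3 AdTGFb1 lay above for 1 and below for 2 of the 17, where 11.5% of all genes lay above and 12.9% below.

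**Figure D3:**
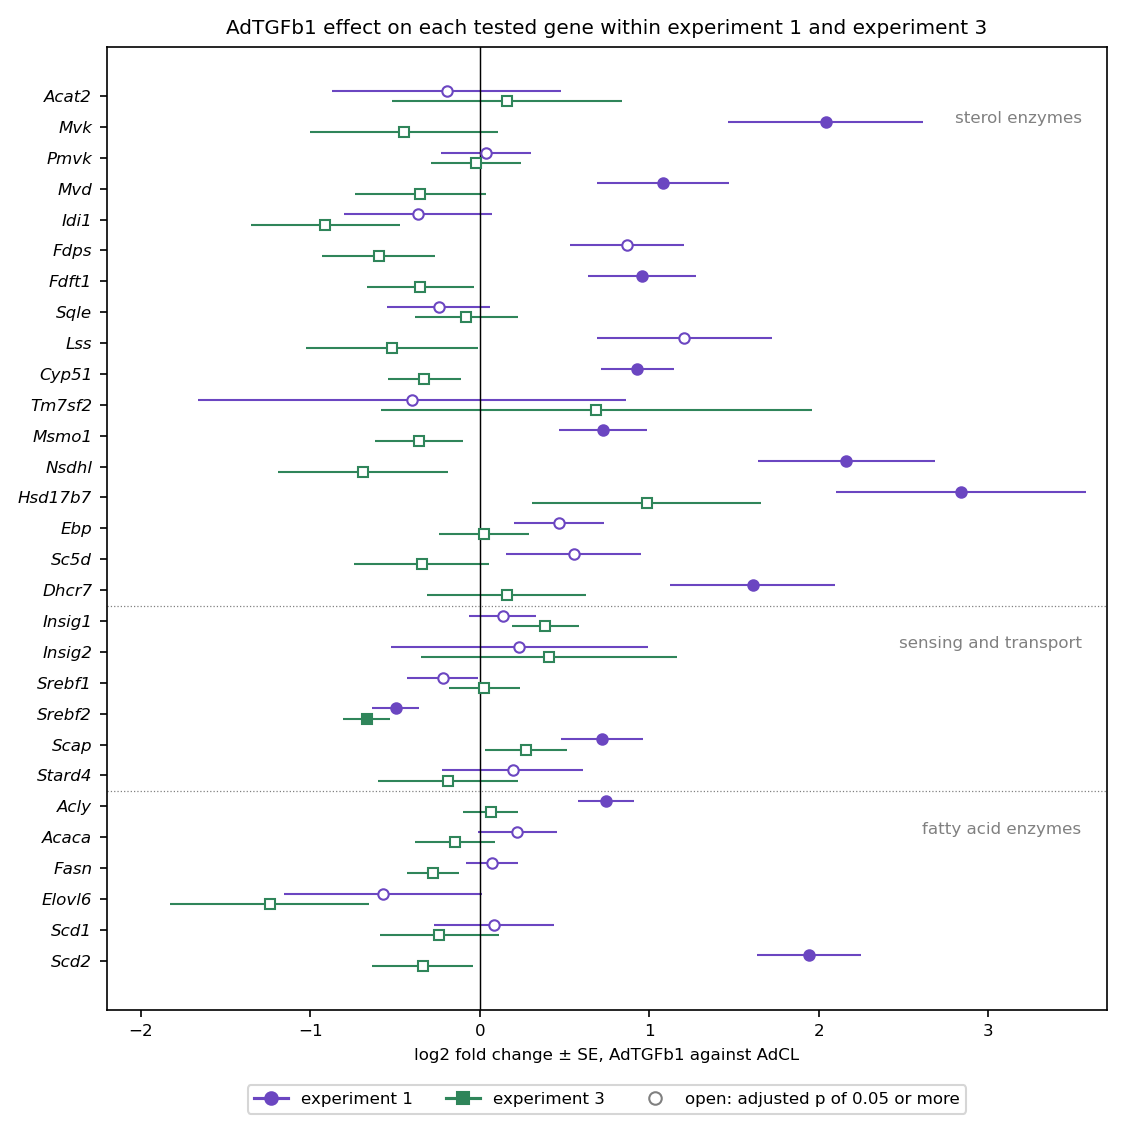
Log2 fold change ± SE of AdTGFb1 against AdCL for the 29 tested genes in pathway order, in experiment 1 (purple circles) and experiment 3 (green squares); filled symbols are adjusted p under 0.05. The purple circles of 13 of 17 sterol enzymes lie to the right of 0 and the green squares of 12 of 17 to its left, and Srebf2 is the only gene with filled symbols in both experiments, at -0.50 and -0.67.

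The bases before the start sites of 5 of these genes, picked by their results in experiment 1, are shown: Mvk, Cyp51, Nsdhl and Hsd17b7 rose there while Srebf2 fell. They are 250 bases from the RefSeq promoter table (GRCm38.p6, not the build of the counts), 5′ to 3′ on the gene's strand and ending at the base before the start, with capitals on every CCAAT box, the letters bound by the factor NF-Y that works beside SREBP, read on either strand (CCAAT or ATTGG).
Mvk: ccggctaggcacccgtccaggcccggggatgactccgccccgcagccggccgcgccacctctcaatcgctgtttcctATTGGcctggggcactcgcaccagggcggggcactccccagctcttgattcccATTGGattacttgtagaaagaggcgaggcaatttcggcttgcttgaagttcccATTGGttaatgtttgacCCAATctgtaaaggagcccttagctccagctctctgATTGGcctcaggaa
Cyp51: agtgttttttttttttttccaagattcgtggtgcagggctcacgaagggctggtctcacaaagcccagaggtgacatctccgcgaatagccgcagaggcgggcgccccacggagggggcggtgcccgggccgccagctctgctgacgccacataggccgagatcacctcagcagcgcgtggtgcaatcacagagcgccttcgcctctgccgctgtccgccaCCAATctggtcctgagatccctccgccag
Nsdhl: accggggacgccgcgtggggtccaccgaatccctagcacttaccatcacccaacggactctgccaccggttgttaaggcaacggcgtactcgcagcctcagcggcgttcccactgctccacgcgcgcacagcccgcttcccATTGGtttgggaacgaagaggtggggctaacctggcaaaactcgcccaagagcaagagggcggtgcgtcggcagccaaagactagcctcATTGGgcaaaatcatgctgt
Hsd17b7: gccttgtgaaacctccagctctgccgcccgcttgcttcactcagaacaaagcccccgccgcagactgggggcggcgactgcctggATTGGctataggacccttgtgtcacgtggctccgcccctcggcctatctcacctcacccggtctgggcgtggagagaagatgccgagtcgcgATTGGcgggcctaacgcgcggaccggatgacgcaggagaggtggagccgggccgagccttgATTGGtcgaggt
Srebf2: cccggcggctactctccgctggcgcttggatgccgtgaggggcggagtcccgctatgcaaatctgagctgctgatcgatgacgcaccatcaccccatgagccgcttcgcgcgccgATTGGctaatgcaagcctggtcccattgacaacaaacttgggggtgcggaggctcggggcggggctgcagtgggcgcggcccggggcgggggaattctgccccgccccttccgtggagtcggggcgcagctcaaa
They lie at chr5:114444019-114444268 (Mvk, plus strand), chr5:4104698-4104947 (Cyp51, minus strand), chrX:72918271-72918520 (Nsdhl, plus strand), chr1:169969206-169969455 (Hsd17b7, minus strand) and chr15:82147019-82147268 (Srebf2, plus strand). Mvk held 5 such boxes, Hsd17b7 held 3, Nsdhl held 2, and Cyp51 and Srebf2 held 1 each. The table matched 24 of the 30 genes by symbol; Fdps, Fdft1, Sqle, Stard4, Scd1 and Scd2 were not matched. Counting a gene if any of its listed promoters held the box, 14 of 15 matched sterol enzymes (93.3%), 4 of 5 genes of sensing and transport and 1 of 4 fatty acid enzymes (Fasn, with 3) did, against 37.5% of all 27025 genes in the table. Over single promoters the share was 62.5% of 32 for the matched genes and 33.8% of all 32851. The longer letters TCACNCCAC, a form of the SREBP element, searched on both strands, were in 1 of the 24 genes (Hmgcs1) and in 1.22% of all genes. These are matches of letters, not bound sites, and their part in the differences between the vectors was not tested.

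Among the sensors, Srebf2, which encodes the sterol-acting SREBP2, was lower with AdTGFb1 in both experiments. It lay at 331, 275 and 262 CPM in AdCL and 188, 191 and 237 CPM in AdTGFb1 of experiment 1. Srebf2 in experiment 3 was at 282, 289 and 273 CPM in AdCL and 178, 173 and 180 CPM in AdTGFb1. All 6 AdTGFb1 libraries lay below all 6 AdCL libraries, which held for no other gene of the 29 in either direction, where 6.32% of all genes were so separated, 4.46% below and 1.86% above. Combined, Srebf2 fell by 0.58 ± 0.10 as a log2 fold change (adjusted p = 0.000753), by 0.50 ± 0.14 (adjusted p = 0.0119) in experiment 1 and by 0.67 ± 0.14 (adjusted p = 0.00422) in experiment 3, and the combined call held under every setting tried, with or without each library. The call within experiment 1 was lost without AdCL DC 7 (-0.34), AdTGFb1 DC 14 (-0.43) or AdTGFb1 DC 52 (-0.44), and that within experiment 3 was kept without each library. With a term for endothelial or alveolar macrophage transcripts the calls within experiment 1 (-0.82, adjusted p = 0.317, and -0.43, adjusted p = 0.205) and experiment 3 (-0.57, adjusted p = 0.0526, and -0.75, adjusted p = 0.167) were lost, and a term for sex (-0.62, adjusted p = 0.0588) or cell cycle transcripts (-0.35, adjusted p = 0.691) ended the call in experiment 1. By the mean over each list, endothelial and cell cycle markers separate the vectors wholly in experiment 1, and alveolar macrophage markers do in experiment 3. Vector and term cannot be told apart there. The difference between the experiments in the effect on Srebf2 did not pass (-0.17 ± 0.20, adjusted p = 0.688). The lower level of Srebf2 in experiment 1 stood beside higher levels of 8 sterol enzymes in the same libraries. The summed level of the mature migratory DC markers moved with Srebf2. It was 6164 to 6688 CPM in AdCL and 1865 to 2393 CPM in AdTGFb1 of experiment 1, and 5136 to 8645 and 2221 to 3879 CPM in experiment 3. In experiment 1, where 14.1% of all genes were called lower, 6 of the 8 markers were called lower and 1 higher. In experiment 3, where 4.46% of all genes were called lower, 7 markers were called lower and 0 higher. Ccr7, the chemokine receptor of migrating DCs, was among them and fell with the experiments combined (log2 fold change -1.69, adjusted p = 6.71e-07). Of the 10 CD11b DC markers, 6 were lower and 2 higher with AdTGFb1 in experiment 1, and 4 were lower and 1 higher in experiment 3. Over all genes, 14.1% were lower and 10.6% higher in experiment 1, and 4.46% and 1.97% in experiment 3. The part of either list in the difference of Srebf2 was not tested.

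Srebf1, which encodes the SREBP1 forms, did not pass in either experiment, at 66.6 to 87.4 CPM in AdCL and 51.3 to 80.2 CPM in AdTGFb1 of experiment 1 and 46.4 to 60.9 and 45.1 to 62.1 CPM in experiment 3. It shares 109 exon bases with Rai1 on the opposite strand. Scap, the escort protein, lay at 26.1, 35.4 and 43.1 CPM in AdCL and 61.8, 53.4 and 57.2 CPM in AdTGFb1 of experiment 1. Experiment 3 gave 30.004, 38.5 and 40.2 CPM in AdCL and 31.1, 57.0 and 43.4 CPM in AdTGFb1. It rose in experiment 1 (0.72 ± 0.24, adjusted p = 0.0335), a call lost without any 1 of AdCL DC 7 or 8 or AdTGFb1 DC 14, 52 or 54, and missed the threshold in experiment 3 (0.27 ± 0.24, adjusted p = 0.625) or combined (0.50 ± 0.18, adjusted p = 0.0688). Insig1, which retains SCAP and is itself a target of SREBP, did not pass (0.26 ± 0.15, adjusted p = 0.255). Its libraries overlapped in experiment 1, and in experiment 3 AdTGFb1, at 74.2 to 91.3 CPM, lay above AdCL, at 51.4 to 67.7 CPM. Insig2, its paralogue, spread from 0.199 to 11.5 CPM within AdCL of experiment 1. Stard4, a carrier of sterols between membranes, had the same mean of 17.3 CPM over the 6 libraries of each vector (± 5.37 and ± 6.97, SD).

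**Figure D4:**
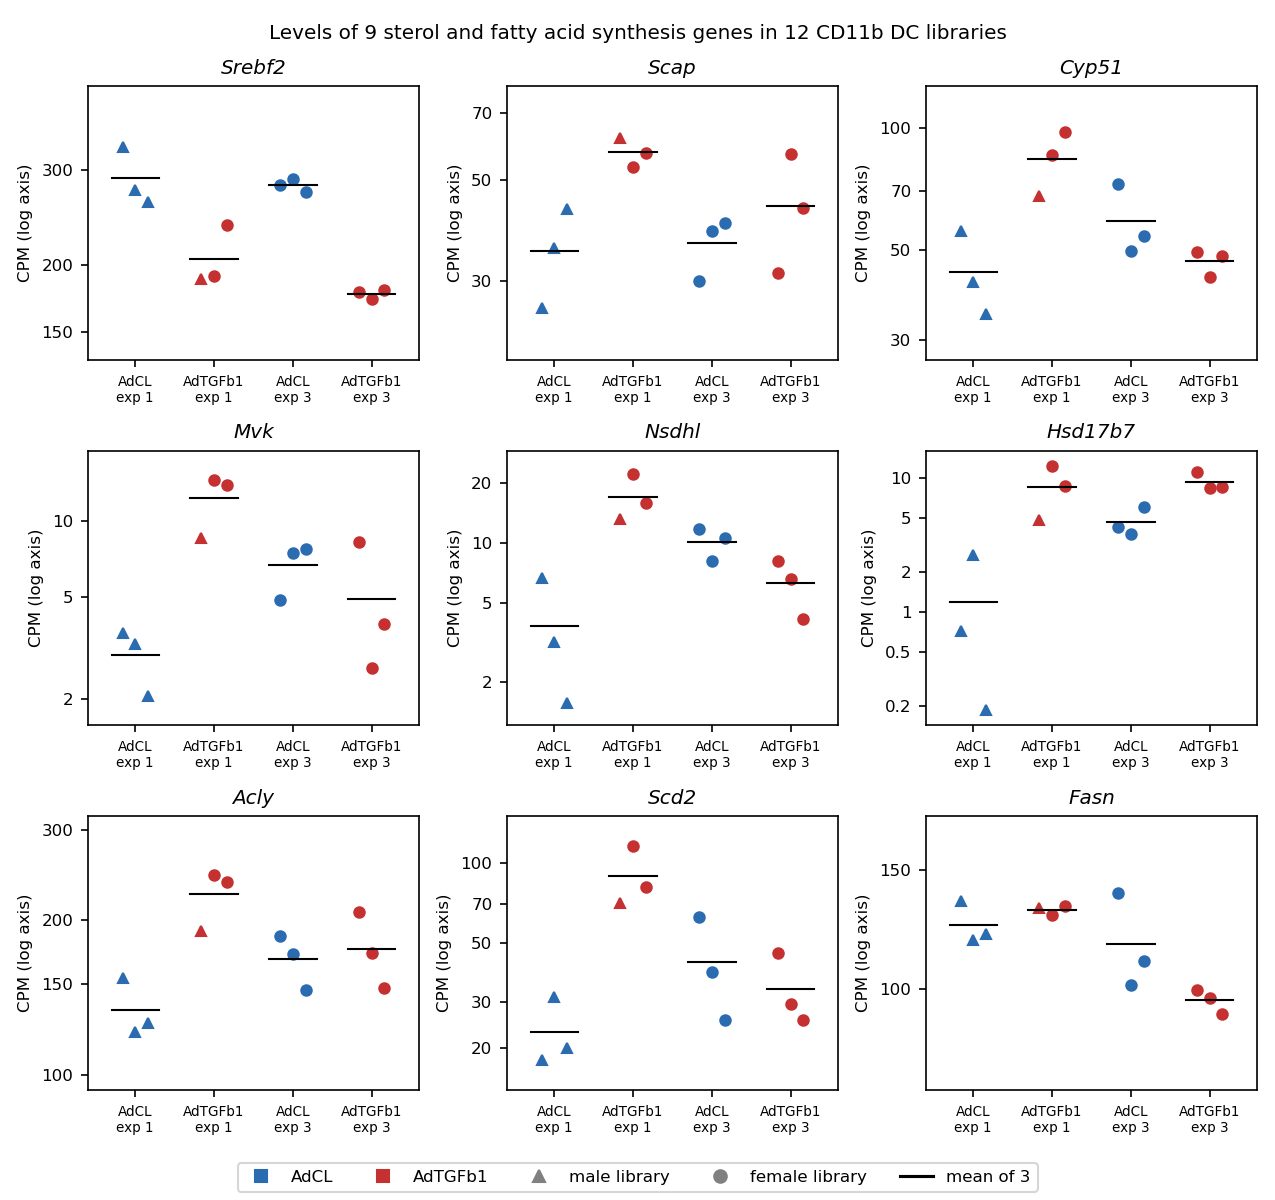
CPM on a log axis, whose range differs between genes, of 9 genes by vector and experiment; each symbol is 1 library, triangles are male and circles female, and dashes are means of 3. Srebf2 is lower with AdTGFb1 in both experiments (289 to 205 CPM and 281 to 177 CPM), Cyp51, Mvk, Nsdhl, Acly and Scd2 are highest in AdTGFb1 of experiment 1, and the group means of Fasn run from 96.1 to 131 CPM.

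In the fatty acid arm, Acly and Scd2 rose in experiment 1, and the other 4 enzymes did not pass in either experiment. Acly, which makes cytosolic acetyl-CoA from citrate and so feeds both arms, lay at 154, 121 and 126 CPM in AdCL and 191, 245 and 237 CPM in AdTGFb1 of experiment 1. Experiment 3 gave 186, 172 and 146 CPM in AdCL and 207, 173 and 147 CPM in AdTGFb1. It rose by 0.74 ± 0.16 (adjusted p = 0.00171) in experiment 1 and did not pass in experiment 3 (0.064 ± 0.16, adjusted p = 0.899). Acaca, the carboxylase that commits acetyl-CoA to fatty acids, lay between 22.6 and 38.7 CPM in all libraries (combined 0.038 ± 0.17, adjusted p = 0.911). Fasn, the synthase that builds palmitate, lay at 118 to 135 CPM in AdCL and 129 to 132 CPM in AdTGFb1 of experiment 1. In experiment 3 its AdTGFb1 libraries, at 91.8 to 99.6 CPM, lay below its AdCL libraries, at 101 to 139 CPM, but it did not pass (-0.28 ± 0.15, adjusted p = 0.359). Elovl6, which lengthens palmitate, lay at 6.27 to 7.72 CPM in AdCL and 3.01 to 5.83 CPM in AdTGFb1 of experiment 1, without overlap, and its negative differences did not pass in either experiment (-0.57 ± 0.58, adjusted p = 0.519, and -1.24 ± 0.59, adjusted p = 0.261).

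The 2 desaturases, neighbours on chromosome 19 that introduce the double bond of oleate, differed. Scd2 lay at 18.1, 31.2 and 19.99 CPM in AdCL and 70.5, 115 and 80.8 CPM in AdTGFb1 of experiment 1. In experiment 3 it lay at 62.5, 38.9 and 25.6 CPM in AdCL and 45.5, 29.4 and 25.5 CPM in AdTGFb1. It rose by 1.94 ± 0.31 (adjusted p = 6.87e-05) in experiment 1, the smallest adjusted p of the 29 genes there, and the call was kept without each library and with a term for sex. It was lost with a term for endothelial transcripts (2.19, adjusted p = 0.226) or for cell cycle transcripts (1.66, adjusted p = 0.286). Both of these measures separate the vectors wholly in experiment 1, so vector and term cannot be told apart there. In experiment 3 the vectors overlapped and Scd2 did not pass (-0.34 ± 0.30, adjusted p = 0.626). Scd1 lay at 14.7 to 21.3 CPM in AdCL and 11.5 to 27.4 CPM in AdTGFb1 of experiment 1 and did not pass there (0.084 ± 0.35, adjusted p = 0.895) or in experiment 3 (-0.24 ± 0.35, adjusted p = 0.801). The paralogues can share reads, and the difference between their changes was not tested.

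The difference between the experiments was tested directly as the AdTGFb1 effect in experiment 3 minus that in experiment 1. It passed for 3 of the 29 genes, all lower: Cyp51 (-1.26 ± 0.30, adjusted p = 0.0144), Nsdhl (-2.85 ± 0.72, adjusted p = 0.0198) and Scd2 (-2.28 ± 0.43, adjusted p = 0.00255). Over all genes 6.02% were called, 2.59% lower and 3.43% higher. The call of Cyp51 was lost without AdTGFb1 DC 54 (-1.13) and that of Nsdhl without AdTGFb1 DC 52 (-2.62) or DC 956 (-2.62). Without AdCL DC 7 or AdTGFb1 DC 954 there were 5 calls. With a term for sex, endothelial, cell cycle or alveolar macrophage transcripts there were 0. Each of these measures separates the vectors nearly or wholly in experiment 1 or experiment 3, so vector and term cannot be told apart there. The signed log2 fold change was higher in experiment 1 for 14 of 17 sterol enzymes and 6 of 6 fatty acid enzymes. This held for 6437 of all 13221 genes tested. Idi1 and Elovl6 were counted here with negative values in both experiments, larger in size in experiment 3. Median differences were -1.26 for sterol and -0.52 for fatty acid enzymes, against 0.025 over all genes. Of the 8 sterol enzymes that rose in experiment 1, 6 had a negative log2 fold change in experiment 3, and the others were Hsd17b7 and Dhcr7.

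The same vector was also compared between experiments, in contrasts added after the values above were seen. Of the 29 genes, 0 were called between the AdCL groups (6 at an unadjusted p under 0.05, and 2 higher in experiment 3 by DESeq2), where 9.02% of all genes were called, 4.13% higher and 4.89% lower. Between the AdTGFb1 groups 2 were lower in experiment 3, where 7.81% of all genes were called, 3.2% lower and 4.61% higher: Cyp51 (-0.84 ± 0.21, adjusted p = 0.0168) and Scd2 (-1.41 ± 0.30, adjusted p = 0.00473). This count was 1 without AdTGFb1 DC 52, 54, 955 or 956, and 4 by DESeq2. The 4 group means placed AdCL of experiment 1 lowest for 12 of 17 sterol enzymes and AdTGFb1 of experiment 1 highest for 10 of 17. For fatty acid enzymes AdTGFb1 of experiment 1 was highest for 4 of 6, and AdCL of experiment 1 and AdTGFb1 of experiment 3 were each lowest for 3 of 6.

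Other genes of the pathway gave further lists. Of the other sterol genes, Mmab, an enzyme of cobalamin metabolism, and Tmem97, a membrane protein that binds sterols, were low in level and did not pass. Mmab lay at 0.995 to 1.65 CPM in AdCL and 0.430 to 6.74 CPM in AdTGFb1 of experiment 1 (combined 1.02 ± 0.72, adjusted p = 0.379). Tmem97 lay at 0.651 to 2.79 CPM in AdCL and 2.5 to 5.08 CPM in AdTGFb1 of experiment 1 (combined 0.78 ± 0.70, adjusted p = 0.512). The vectors overlapped for both genes there.

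The list of SREBP processing and turnover had 10 tested genes, and edgeR called 0 of them combined, in experiment 1 or in experiment 3 (2, 2 and 1 at an unadjusted p under 0.05), where 17.2%, 24.7% and 6.43% of all genes were called. It also called 0 for the difference of the AdTGFb1 effect between the experiments (0 at an unadjusted p under 0.05), where 6.02% were called. The smallest combined adjusted p were those of Erlin1, a protein of the endoplasmic reticulum membrane (-0.35 ± 0.14, adjusted p = 0.0873), and Mbtps1, the Golgi protease that makes the first cut in SREBP (0.30 ± 0.12, adjusted p = 0.0986), ahead of Faf2 (0.36 ± 0.19, adjusted p = 0.218). Of 25 other fatty acid genes, 20 were tested, and 1 was higher and 1 lower combined, shares no larger than the 6.78% and 10.4% over all genes. Fads1, a desaturase of polyunsaturated fatty acids, lay at 26.8 to 31.2 CPM in AdCL and 44.7 to 63.1 CPM in AdTGFb1 of experiment 1, and at 41.3 to 46.6 and 53.9 to 84.8 CPM in experiment 3. It rose by 0.77 ± 0.16 (adjusted p = 0.00206), without overlap of the vectors within either experiment. Elovl5, which lengthens polyunsaturated fatty acids, fell by 0.46 ± 0.15 (adjusted p = 0.0398). Acsl1, which activates fatty acids with coenzyme A, rose in experiment 3 (0.76 ± 0.20, adjusted p = 0.0211) and was not called combined (0.39 ± 0.17, adjusted p = 0.118), nor was Acsl3 (0.41 ± 0.19, adjusted p = 0.151).

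Genes of sterol export and storage were also called. Of 11 genes of LXR and sterol handling, 3 rose combined, where 6.78% of all genes did, and 4 in experiment 1, where 10.6% did. In experiment 3 edgeR called 0 (3 at an unadjusted p under 0.05), where 6.43% of all genes were called. Abca1 and Abcg1, the transporters that pass cholesterol to lipoproteins, rose by 0.71 ± 0.15 (adjusted p = 0.00243) and 0.81 ± 0.17 (adjusted p = 0.00303) combined. Abca1 lay at 257 to 285 CPM in AdCL and 497 to 623 CPM in AdTGFb1 of experiment 1, while in experiment 3 the vectors overlapped, at 408 to 642 and 543 to 788 CPM. Soat1, which stores cholesterol as esters, lay at 128, 104 and 86.8 CPM in AdCL and 244, 284 and 290 CPM in AdTGFb1 of experiment 1. In experiment 3 it lay at 243, 140 and 155 CPM in AdCL and 252, 194 and 166 CPM in AdTGFb1. It rose by 1.36 ± 0.20 (adjusted p = 2.85e-05) in experiment 1, missed the threshold in experiment 3 (0.19 ± 0.20, adjusted p = 0.694), and differed between the experiments (-1.17 ± 0.28, adjusted p = 0.013). Lpcat3, a phospholipid acyltransferase under LXR, rose in experiment 1 (1.46 ± 0.44, adjusted p = 0.0191) and not past the threshold combined (0.81 ± 0.35, adjusted p = 0.132). Summed levels of monocyte and macrophage markers, genes of cells that also express these transporters, were 2640 to 3523 CPM in AdCL and 7346 to 10429 CPM in AdTGFb1 of experiment 1, and 6027 to 7836 and 13867 to 17561 CPM in experiment 3. Their part in these differences was not tested.

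Levels were compared between genes only per length, as CPM per kilobase of merged exons (GENCODE M21). On this scale Acly and Srebf2 stood highest, at 33.3 and 33.1 CPM per kilobase over all 12 libraries, ahead of Insig1 at 24.9, Pmvk at 18.4 and Cyp51 at 13.3. The lowest of the tested genes were Elovl6 at 1.00, Lss at 0.706 and Tm7sf2 at 0.553 CPM per kilobase. The order depended on the group: Srebf2 was first in both AdCL groups, at 40.3 and 39.1, and Acly was first in both AdTGFb1 groups, at 42.5 and 33.3. Among fatty acid enzymes Scd2 stood at 4.23 in AdCL and 16.3 in AdTGFb1 of experiment 1, and Fasn at 11.4 and 12.0. Hsd17b7, the sterol enzyme with the largest change in experiment 1, was among the lowest in level, at 0.235 CPM per kilobase in AdCL and 1.69 in AdTGFb1.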

How the data were processed

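RNA was selected by poly(A) tail and made into directional libraries with 10 cycles of PCR, per the labels' protocols. The authors deposited raw read counts per gene symbol for all 12 libraries. Per the submitters' processing notes, build mm9 was used, and the tools named include HTSeq, DESeq2 and STAR 2.5.0c, with no roles stated. Annotation, strand setting, organ, sort gate and time after the vector were not given in the labels or headers used here.

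Genes were filtered with filterByExpr, scaled by TMM and tested with edgeR 4.0.16 (R 4.3.3) quasi-likelihood, with Benjamini-Hochberg adjustment over 13221 genes and a threshold of 0.05. Combined effects came from a fit with experiment and vector as terms. Effects within an experiment, and their difference, came from a fit of the 4 groups. CPM used the TMM-scaled library sizes, and log2 CPM a prior count of 2. Differences are log2 fold changes ± SE. The tests were checked on simulated counts. Alternatives were RLE size factors, no filter, DESeq2 1.42.0, terms for sex or endothelial transcripts, no term for the other factor, and leaving out each library. Terms for cell cycle and alveolar macrophage transcripts and the contrasts of 1 vector between experiments were added after the data were seen. All 30 genes are named, and from each context list up to 4 genes with the smallest combined p and any called between experiments. Some genes this rule names, and the counts over other sterol genes, are not reported here. The genes and lists were chosen with earlier results of these data known. Counts of 10099912 to 15594546 per library put 3 counts at 0.181 to 0.31 CPM, which covers counting error only. Each library had its own column, and no library was left out of the main results.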

Additional observations from a re-analysis of the deposited data

Results flagged for a closer look

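The effect of AdTGFb1 differed between the experiments for 3 of the 29 tested genes, by edgeR's test of the difference itself (experiment 3 minus experiment 1). Cyp51 differed by -1.26 (adjusted p = 0.0144), with AdTGFb1 above AdCL in 3 of 3 libraries of experiment 1 and below in 3 of 3 of experiment 3. Nsdhl differed by -2.85 (adjusted p = 0.0198) and Scd2 by -2.28 (adjusted p = 0.00255); both were above every AdCL library in experiment 1 and overlapped in experiment 3. Experiment 1 compared mostly libraries of different sex and experiment 3 only female ones, so sex and experiment cannot be fully told apart.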

How the results depend on the processing

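No paired analysis was possible because each DC number belongs to a single library, so the groups share no replicate numbers. With RLE size factors every count of called genes among the 29 was as reported, and Srebf2 was lower combined under all settings. Combined, 1 gene was higher; this became 2 with DESeq2, 3 without the filter, 5 with the alveolar macrophage term, and 0 with the sex, endothelial or cell cycle term or no term for experiment (0 to 4 leaving out 1 library). In experiment 1, the 11 higher became 3 with the alveolar macrophage term, 1 with sex and 0 with the endothelial or cell cycle term (6 to 11 leaving out 1 library). The 1 lower became 0 with each of these 4 terms (0 to 1 leaving out 1 library). The endothelial and cell cycle measures separate the vectors wholly in experiment 1, so vector and term cannot be told apart there. In experiment 3, the 1 lower became 0 with the alveolar macrophage or endothelial term. The 3 lower between the effects became 5 with DESeq2 or without the filter and 0 with each of the 4 terms (2 to 5 leaving out 1 library). Sqle, the 1 gene lower in experiment 3 over both vectors, became 0 with sex or no term for vector (0 to 1 leaving out 1 library). Between AdCL groups, 0 higher became 2 with DESeq2 or without the filter (0 to 2 leaving out 1 library). Between AdTGFb1 groups, 2 lower became 4 with DESeq2 and 0 with the alveolar macrophage, cell cycle or endothelial term (1 to 3 leaving out 1 library). The 2271 genes called combined became 1491 with the cell cycle term and 1501 with sex. The causes were not tested.

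Of the sign changes, none was called in either setting except Mvd in experiment 1, which was -0.24 with the cell cycle term. All others are combined log2 fold changes. Stard4 became -0.0025 with DESeq2 and -0.0026 with RLE. With the cell cycle term Acat2 became 0.15, Pmvk -0.069, Mvd -0.14, Fdps -0.11, Lss -0.26, Msmo1 -0.099, Sc5d -0.20, Stard4 -0.012 and Acaca -0.11. With the endothelial term Acat2 became 0.13, Pmvk -0.017, Fdps -0.16, Lss -0.10, Cyp51 -0.013, Msmo1 -0.090, Sc5d -0.21, Stard4 -0.014 and Acaca -0.035. With sex Acat2 became 0.14, Pmvk -0.017, Mvd -0.094, Fdps -0.18, Msmo1 -0.072, Sc5d -0.062, Stard4 -0.41 and Acaca -0.073. Leaving out 1 library gave -0.35 to 0.18 for Acat2, -0.12 to 0.10 for Pmvk, -0.0048 to 0.35 for Fdps, -0.11 to 1.56 for Tm7sf2, -0.087 to 0.26 for Sc5d, -0.17 to 0.0025 for Srebf1, -0.20 to 0.17 for Stard4, -0.0067 to 0.12 for Acaca and -0.27 to 0.079 for Scd1. Tm7sf2, Hsd17b7 and Insig2, with 0 to 7 counts in some libraries, are limited by depth.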
